A study of Mus musculus with 44 samples.

Results

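The serum amyloid A genes Saa1, Saa2 and Saa3, the lipocalin gene Lcn2, the haptoglobin gene Hp, the calprotectin genes S100a8 and S100a9, and the orosomucoid gene Orm1 were followed across bleomycin-treated, recovering and saline-treated mouse back skin. These 8 genes, of 43411 in the table, were chosen by name from the acute-phase and neutrophil-linked genes after the large rise of Saa3 in these same mice was known. Their levels in the saline and bleomycin groups are therefore given as a description with no p-value, also where a count of members called is given. For the members, p-values are given for the comparison of both recovery groups and for relations between mice of a group, and other listed genes carry their own adjusted p-values. The study asked how gene expression follows the dermal changes of a bleomycin model of systemic sclerosis, a fibrosing disease, and whether it returns after treatment stops. RNA was sequenced from a part of each skin biopsy, and each mouse gave 1 library. All mice were wild-type C57Bl/6 females, 8 weeks old at the start. The saline group held 10 mice, and the labels do not give how long saline was injected. Bleomycin was injected under the back skin every day, by the methods as 100 µL at 1 U/mL, for 2 weeks in 10 mice and for 4 weeks in 10 others. A supplementary figure legend of the study states a lower concentration, so the dose is uncertain. The recovery groups received bleomycin for 4 weeks and were then left untreated for 6 weeks, in 6 mice, or for 10 weeks, in 8 mice. Recovered mice were thus older at harvest than bleomycin mice, and age, time since treatment and treatment cannot be told apart.

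The acute-phase response is the release of a set of plasma proteins during infection or tissue injury, driven mainly by interleukin 6, interleukin 1 and tumour necrosis factor acting on the liver. Saa1, Saa2, Hp and Orm1 are best known as liver genes, whereas Saa3 and Lcn2 are also made outside the liver, by macrophages, fat cells and epithelia. S100a8 and S100a9 encode the subunits of calprotectin, a calcium-binding and metal-binding protein that fills the cytoplasm of neutrophils and is also made by stressed keratinocytes.

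Levels are the deposited normalized counts, which are read counts divided by a size factor for each mouse, and 8509094 to 15285577 reads fell on genes in each mouse. Of the genes, 17037 had a mean above 3 and were tested, and all 8 members were among them, Saa1 and Saa2 only through their bleomycin groups. Mouse 2 of the 2-week group had the lowest median correlation with its own group (0.938), followed by saline mouse 1 (0.942). The skin marker list summed to a median of 335201 normalized counts in saline and 294831 at 2 weeks. Growing hair markers stood apart between groups: their sum had a median of 40727 in saline (lowest 2073, highest 225868), 50.4 at 2 weeks, 60.8 at 4 weeks, 11102 after 6 weeks and 95848 after 10 weeks of recovery, so the hair cycle and the treatment cannot be told apart. In bulk skin, more cells of a type and more RNA per cell cannot be told apart either.

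Saa3, Saa1 and Saa2 lie together on chromosome 7, and all are annotated as protein-coding (positions in GRCm38, GENCODE M21). Saa3 spans chr7:46711998-46715700 on the minus strand. Saa1 (chr7:46740497-46742980, minus strand) begins 8.8 kb from Saa2 (chr7:46751790-46754313, plus strand), and both genes point away from each other. The coding sequences of Saa1 and Saa2 were 95.1% identical, whereas Saa1 and Saa3 were 76.4% identical. Of the 50-base windows of the Saa1 transcript, 14.8% also occurred in Saa2 or Saa3, against 1.78% of those of Saa3. The read counting tool is not stated, so the split of reads between Saa1 and Saa2 is uncertain. The bases before the start of transcription are shown because Saa3 and Saa1 varied together between mice, and because the pair with near-identical coding sequence also shares its upstream sequence. RefSeq promoters of GRCm38.p6 were used, cut where an annotated coding transcript begins. The stretches are chr7:46742981-46743230 (minus strand) for Saa1, chr7:46751583-46751789 (plus strand) for Saa2 and chr7:46715701-46715926 (minus strand) for Saa3, and capitals mark a match on either strand to the C/EBP motif TTNNGCAA.
Saa1: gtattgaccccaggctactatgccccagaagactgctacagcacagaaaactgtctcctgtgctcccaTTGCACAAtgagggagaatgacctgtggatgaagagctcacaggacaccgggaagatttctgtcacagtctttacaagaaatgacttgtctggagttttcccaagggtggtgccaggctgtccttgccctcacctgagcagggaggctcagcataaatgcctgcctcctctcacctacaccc
Saa2: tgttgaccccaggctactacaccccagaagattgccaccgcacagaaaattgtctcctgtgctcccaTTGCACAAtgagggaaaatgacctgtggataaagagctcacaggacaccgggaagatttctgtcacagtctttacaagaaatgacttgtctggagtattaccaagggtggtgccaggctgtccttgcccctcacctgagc
Saa3: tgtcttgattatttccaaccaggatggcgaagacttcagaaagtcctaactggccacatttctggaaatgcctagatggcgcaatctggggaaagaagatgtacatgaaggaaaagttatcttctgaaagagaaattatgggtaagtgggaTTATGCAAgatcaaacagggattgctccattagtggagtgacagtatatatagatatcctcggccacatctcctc
In these sequences the upstream 250 bases of Saa1 and Saa2 were 94.8% identical over their alignment, and those of Saa1 and Saa3 were 50.2% identical. The motif began 182 bases before the RefSeq start of Saa1, 183 before that of Saa2 and 99 before that of Saa3. For Saa2 and Saa3 this start lies beyond the end of the stretch shown, which was cut before an annotated exon. RefSeq promoters were at hand for 6 of the 8 members, and 5 of these 6 (Lcn2 and S100a9 as well, S100a8 not) held the motif in their 250 bases, as did 9.56% of 32851 promoters. The form of this motif was settled with the sequences in view, and Saa1 and Saa2, near-identical upstream, hold the same match. Nothing is therefore read from this count. A looser form, TTNNGNAA, was present in all 6 and in 36.8% of promoters. The STAT motif TTCNNNGAA and the NF-κB consensus, present in 7.02% and 7.25% of promoters on either strand, had no match in the 6 windows. The promoters of Hp and Orm1 were not analysed here.

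Saa3, which encodes a lipid-binding acute-phase protein made locally in inflamed tissue, had the largest rise by fitted fold change of all genes tested at 2 and at 4 weeks of bleomycin, while some growing hair genes fell by more. In saline skin it was almost silent, with 1.15 to 5.63 normalized counts (median 3.57) and 30 reads in all over 10 mice. At 2 weeks it ranged from 259 to 17304 with a median of 1109, and at 4 weeks from 75.8 to 2317 with a median of 409. Every bleomycin mouse was above every saline mouse. The fitted difference on the log2(normalized count + 1) scale was 8.49 ± 0.58 (SE) at 2 weeks and 6.45 ± 0.58 at 4 weeks, and the group medians stood 311-fold and 115-fold above the saline median. After 6 weeks of recovery Saa3 was 0 to 10.95 (median 8.21), and after 10 weeks 2.67 to 20.4 (median 5.87), both overlapping saline. Recovered levels were 0.61 (95% interval -0.73 to 1.96) and 0.85 (-0.38 to 2.09) above saline on the log2 scale, and both intervals hold 0 as well as a rise of 1.5-fold.

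Saa1 and Saa2, the main acute-phase serum amyloid A genes of the liver, were close to undetected in saline skin and appeared under bleomycin. Saa1 had 1 read in each of 4 saline mice and none in the other 6, and Saa2 had 1 read in each of 3. At 2 weeks Saa1 ranged from 5.87 to 684 normalized counts (median 28.45) and at 4 weeks from 2.93 to 23.8 (median 5.48). All 20 bleomycin mice were thus above the highest saline mouse for Saa1. Saa2 ranged from 1.17 to 209 at 2 weeks (median 8.37) and from 1.07 to 18.1 at 4 weeks (median 3.49), with 9 of 10 mice above saline at each time. With so few saline reads, the ratio of pooled reads was used in place of a fitted fold. For Saa1 it was 227 at 2 weeks (95% counting interval 88.4 to 836) and 18.9 at 4 weeks (7.15 to 70.8). For Saa2 it was 122 (41.4 to 594) and 17.8 (5.85 to 88.7). These intervals cover counting error only, and mice 2 and 4 of the 2-week group held most of the reads: without them the 2-week ratio was 62.3 for Saa1 and 48.0 for Saa2. The same ratio for Saa3 was 958 (671 to 1420) with all 10 mice and 332 (232 to 492) without these 2. In recovery Saa1 lay between 0 and 2.92 normalized counts, and Saa2 was at 0 in all 6 mice after 6 weeks and in 7 of 8 after 10 weeks. Per kilobase of transcript, the median level of Saa3 at 2 weeks was 1998 normalized counts, against 46.7 for Saa1 and 12.8 for Saa2.

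**Figure D1:**
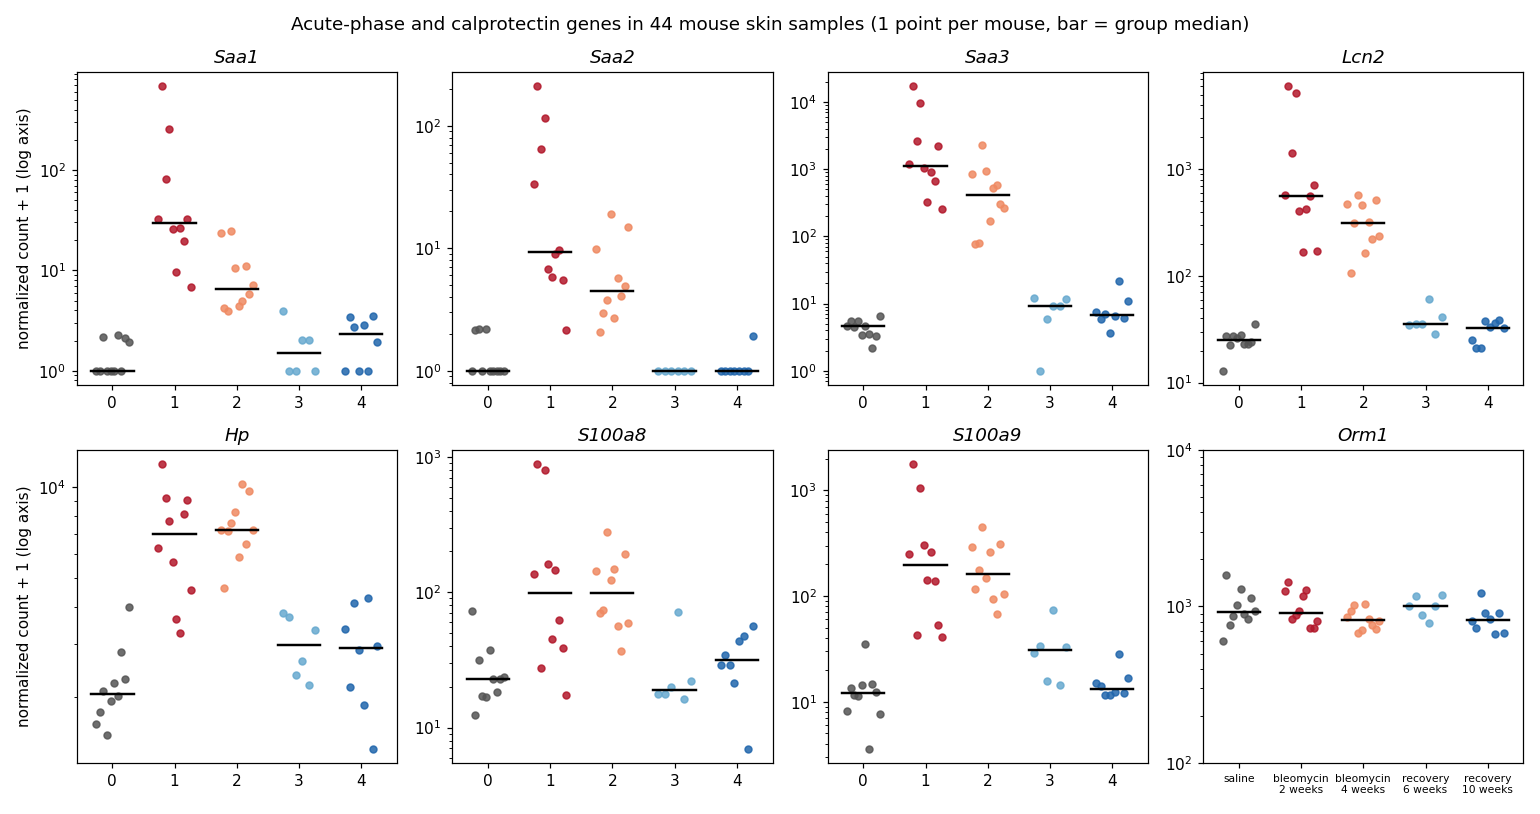
Normalized count + 1 (log axis) of each of the 8 genes in the 44 mice, 1 point per mouse with a bar at the group median. All bleomycin mice lie above all saline mice for Saa1, Saa3, Lcn2 and S100a9, recovery mice overlap saline for every gene, and Orm1 overlaps between all groups.

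Lcn2 encodes neutrophil gelatinase-associated lipocalin, which withholds iron from bacteria by binding their siderophores, and lies at chr2:32384633-32388252 on the minus strand. It was low in saline skin (11.9 to 34.7 normalized counts, median 24.1) and ranged from 168 to 6035 at 2 weeks (median 564) and from 107 to 574 at 4 weeks (median 315). Again no bleomycin mouse overlapped saline. The log2 difference was 4.94 ± 0.42 (SE) at 2 weeks and 3.64 ± 0.42 at 4 weeks, and without mice 2 and 4 the 2-week value was 4.21. After 6 and 10 weeks of recovery Lcn2 was 27.7 to 59.6 (median 34.5) and 20.03 to 37.4 (median 31.6). These ranges overlap saline, with 2 of 6 and 3 of 8 mice above the highest saline mouse.

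Hp encodes haptoglobin, the plasma protein that binds free haemoglobin, and unlike the serum amyloid A genes it was already abundant in saline skin. The gene spans chr8:109575128-109579172 on the minus strand. It measured 1492 to 3984 normalized counts in saline (median 2051), 3266 to 11947 at 2 weeks (median 7011) and 4628 to 10271 at 4 weeks (median 7210). At 2 weeks 8 of 10 mice were above every saline mouse, and at 4 weeks all 10 were. The log2 difference was 1.59 ± 0.20 (SE) and 1.76 ± 0.20, so Hp was about as high at 4 weeks as at 2 weeks (difference 0.18, 95% interval -0.23 to 0.59). It returned to 2197 to 3823 after 6 weeks and to 1342 to 4259 after 10 weeks of recovery, ranges that overlap saline. Per kilobase, Hp was the most abundant member in each of the 5 groups by its median, with 5361 normalized counts at 4 weeks, followed by Orm1 except at 2 weeks, where Saa3 stood between them.

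S100a8 and S100a9 are neighbours on chromosome 3, 22.6 kb apart (chr3:90668978-90670035, plus strand, and chr3:90692632-90695721, minus strand), and both are protein-coding. S100a9 measured 2.58 to 33.9 normalized counts in saline (median 11.05), 39.9 to 1767 at 2 weeks (median 194) and 66.8 to 450 at 4 weeks (median 160). All bleomycin mice were above all saline mice. S100a8 measured 11.4 to 71.5 in saline (median 21.8), 16.4 to 882 at 2 weeks (median 98.3) and 35.8 to 278 at 4 weeks (median 97.1). Its groups overlapped, with 5 and 6 of 10 mice above the highest saline mouse, which was saline mouse 1. The log2 differences were 4.08 ± 0.48 (SE) and 3.91 ± 0.48 for S100a9, and 2.07 ± 0.51 and 2.03 ± 0.51 for S100a8. Without mice 2 and 4 the 2-week values were 3.37 and 1.31. In recovery S100a8 was 15.4 to 70.9 after 6 weeks and 5.96 to 55.2 after 10 weeks. S100a9 was 13.3 to 73.0 after 6 weeks (median 29.7) and 10.45 to 27.5 after 10 weeks (median 12.1). The 6-week S100a9 level was 1.33 above saline on the log2 scale (95% interval 0.21 to 2.44), with 1 of 6 mice above the saline range.

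Per kilobase, S100a9 was the lower of both calprotectin transcripts in most saline mice and the higher in every bleomycin mouse. The ratio of S100a9 to S100a8 was 0.09 to 1.03 in saline (median 0.55), 1.23 to 2.97 at 2 weeks (median 1.73) and up to 2.25 at 4 weeks (median 1.61). The bleomycin and saline ranges did not overlap. After 6 weeks of recovery the ratio was 0.74 to 1.83 (median 1.18), and after 10 weeks 0.25 to 1.74 (median 0.42), with 1 of 8 mice above 1. In saline skin the correlation of both transcripts was weak (r = -0.03 on the log2 scale over 10 mice), whereas r was 0.98 at 2 weeks and 0.96 at 4 weeks. The saline S100a9 values are small, from 2.58 normalized counts, so counting error weighs on the saline ratios.

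**Figure D2:**
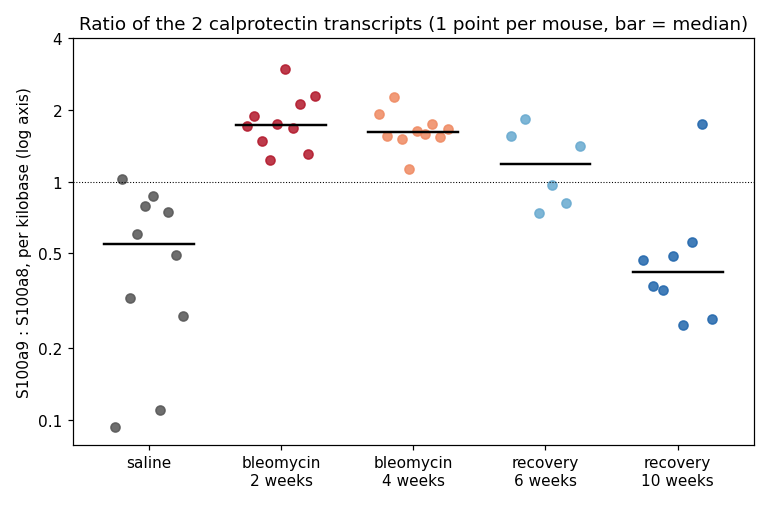
Ratio of S100a9 to S100a8 per kilobase of transcript (log axis) in each mouse, with bars at the group medians. All 20 bleomycin mice lie above 1, and 9 of 10 saline mice and 7 of 8 mice after 10 weeks of recovery lie below 1.

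Orm1, which encodes the drug-binding and lipid-binding plasma protein orosomucoid, stood apart from the other members. It measured 601 to 1599 normalized counts in saline (median 920), 725 to 1431 at 2 weeks (median 909) and 673 to 1038 at 4 weeks (median 816). The ranges after 6 and 10 weeks of recovery, 778 to 1182 and 670 to 1212, also overlapped saline. Its log2 difference from saline was 0.03 at 2 weeks (95% interval -0.25 to 0.30) and -0.21 at 4 weeks (-0.49 to 0.06), so a rise of 1.5-fold lay outside both intervals. Orm1 (chr4:63344560-63348163, plus strand) shares 20.4% of its 50-base windows with Orm2 or Orm3, and its coding sequence is 89.9% identical to that of Orm2, so its count is uncertain. Orm2 was scarce, with a mean of 4.56 ± 3.33 (SD, n = 10) in saline and 10.4 ± 8.55 (n = 10) at 2 weeks (log2 difference 0.91 ± 0.35 SE, adjusted p = 0.0386). Orm3 was not analysed here.

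A gene was called where it differed by more than 1.5-fold with an adjusted p under 0.05. By this count 7 of the 8 members, all but Orm1, were higher at 2 weeks, where 9.3% of all genes tested were called higher and 7.43% lower. At 4 weeks the same 7 genes were called, against 10.5% of all genes higher and 7.37% lower. Ranges without overlap with saline were seen for 4 members at 2 weeks and 5 at 4 weeks, and 3.44% and 4.31% of all genes had every bleomycin mouse above every saline mouse. The median log2 difference over the 8 members was 3.92 at 2 weeks and 2.32 at 4 weeks, and over all genes tested 0.003 and -0.001. The genes were chosen with these contrasts known, so nothing is read from these counts.

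**Figure D3:**
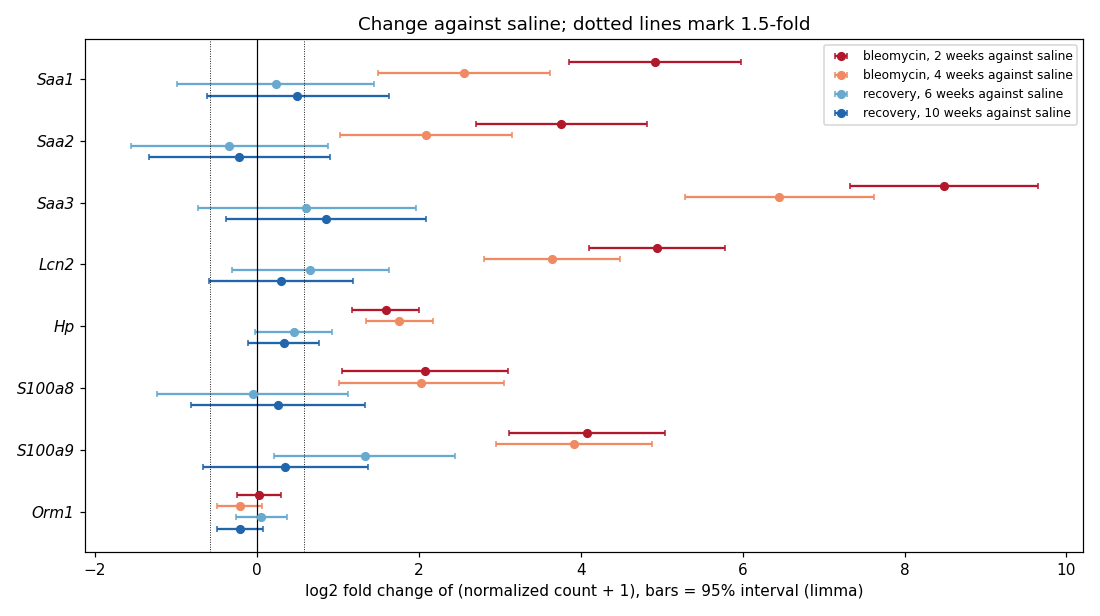
Log2 fold change of (normalized count + 1) against saline for each member, with 95% intervals, at 2 and 4 weeks of bleomycin and after 6 and 10 weeks of recovery. The bleomycin intervals of 7 genes lie above 1.5-fold (dotted line), those of Orm1 include 0, and the recovery intervals include 0 except for S100a9 after 6 weeks.

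Between 2 and 4 weeks of bleomycin the serum amyloid A genes differed most. Saa1, Saa3 and Saa2 were lower at 4 weeks, with log2 differences of -2.36 ± 0.53 (SE), -2.03 ± 0.58 and -1.68 ± 0.52, and met the criteria (0.863% of all genes were called lower and 1.49% higher). Lcn2 stood at -1.30 ± 0.42 and did not meet them. S100a8 (-0.04 ± 0.51), S100a9 (-0.16 ± 0.48) and Hp (0.18 ± 0.20) were close to equal at both times. The ranges of both groups overlapped for each of these genes. The members were chosen with their bleomycin levels known, and Saa1 and Saa2 were tested only through their bleomycin groups. Nothing is therefore read from these calls. These 3 calls depended on the processing and on the most affected mice. With a pseudocount of 0.1 in place of 1, 0 members were called. With mice 2 and 4 of the 2-week group left out, Saa1 was the 1 gene called, at -1.53, while Saa3 stood at -1.26 and S100a9 at 0.54. Saa1 was also the 1 gene called with only the groups compared in the fit and with 42 mice, and edgeR and DESeq2 on the recovered reads called 4 genes, with Lcn2 added.

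The 7 genes that were high under bleomycin were lower after it stopped. Against 4 weeks of bleomycin, 7 of 8 members were called lower after 6 weeks of recovery, where 7.14% of all genes were called lower. The genes were chosen with their 4-week levels known, so nothing is read from this count. All 6 recovered mice were below all 4-week mice for Saa1, Saa2, Saa3, Lcn2 and Hp, and 5 of 6 were for S100a8 and S100a9. The log2 difference was -5.84 ± 0.67 (SE) for Saa3, -2.98 ± 0.48 for Lcn2, -2.59 ± 0.55 for S100a9 and -1.30 ± 0.24 for Hp. Against saline, 0 of 8 members were called after 6 weeks (3.33% of all genes were called higher and 1.71% lower) and 0 of 8 after 10 weeks (2.05% higher and 0.998% lower), by limma as by edgeR and DESeq2. With the 2-week mice 2 and 4 left out of the shared fit, S100a9 was called higher after 6 weeks.

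The direct test of 10 weeks against 6 weeks of recovery uses groups on which the genes were not chosen, and it called no member (0.088% of all genes were called in either direction). Adjusted p-values from limma ran from 0.485 for S100a9 to 0.959 for Saa2, and 0 of 8 members had an unadjusted p below 0.05 by limma, edgeR or DESeq2. Saa1 and Saa2 could hardly differ here, since Saa1 had at most 4 reads in any recovered mouse and Saa2 had 1 read in 1 mouse of 14, and both entered the test only through their bleomycin groups. The adjusted p-values ran from 0.465 to 0.986 with edgeR and from 0.357 to 0.974 with DESeq2. The S100a9 difference was -0.97 on the log2 scale (95% interval -2.14 to 0.19), from a mean of 32.25 ± 21.65 normalized counts (SD, n = 6) to 14.2 ± 5.67 (n = 8), and 5 of 8 mice at 10 weeks were below all 6-week mice. The Hp difference was -0.13 (-0.62 to 0.37) and that of Lcn2 -0.36 (-1.37 to 0.65). The interval for Saa3 was wider, at 0.24 (-1.16 to 1.65), with levels near the counting floor.

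The 2-week mice differed widely from each other, with the highest Saa3 level 66.7 times the lowest, and mice 2 and 4 stood at the top. Saa3 was 17304 and 9693 in these mice and at most 2598 in the other 8. Lcn2 was 6035 and 5219 against at most 1412, S100a8 was 882 and 801 against at most 161, and S100a9 was 1767 and 1051 against at most 300.3. Both mice were the highest of the group for 6 of the 8 members (all but Hp and Orm1), as they were for 12.7% of all genes tested, and they were singled out after their values were seen. For Hp they ranked 1 and 5 of 10. Mouse 3 ranked next for Saa1, Saa2, Saa3 and Lcn2 and 2 for Hp, but 9 of 10 for S100a8 and S100a9. Its calprotectin levels were thus among the lowest of the group while its serum amyloid A levels were among the highest. At 4 weeks mouse 4 of that group ranked 1 for Saa1, Saa3, Lcn2, S100a8 and S100a9 and 7 for Saa2.

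Relations between the genes were measured over 44 mice after group means were removed, with mice permuted within groups and adjustment over 7 relations. S100a8 and S100a9 varied together (r = 0.82, permutation p = 1e-05, adjusted 2.33e-05; rho = 0.71, p = 1e-05, adjusted 7e-05), as did Saa3 and Lcn2 (r = 0.77, p = 1e-05, adjusted 2.33e-05; rho = 0.62, p = 4e-05, adjusted 0.00014). Here 1e-05 is the smallest p that 100000 resamples can give. Saa3 and Saa1 gave r = 0.77 (permutation p = 1e-05, adjusted 2.33e-05) and rho = 0.59 (p = 0.00015, adjusted 0.00035). Saa1 and Saa2, whose counts can share reads, gave r = 0.72 (permutation p = 7e-05, adjusted 0.000122) and rho = 0.47 (p = 0.00469, adjusted 0.00657). Lcn2 and Hp gave r = 0.53 (permutation p = 0.00107, adjusted 0.0015) and rho = 0.44 (p = 0.00458, adjusted 0.00657). When the 2 mice most distant from the first gene's median were left out, r was 0.72, 0.66, 0.66, 0.53 and 0.49 in these 5 relations. Saa3 and S100a8, which link the amyloid and calprotectin genes, gave a smaller r of 0.56 (permutation p = 0.00183, adjusted 0.00213), rho = 0.33 (p = 0.0516, adjusted 0.0602) and r = 0.35 without the 2 farthest mice. Without mice 2 and 4 of the 2-week group it was 0.29 with an adjusted permutation p of 0.103, so it rested on those mice. Hp and Orm1 gave r = -0.08 (permutation p = 0.618, adjusted 0.618) and rho = -0.14 (p = 0.402, adjusted 0.402), and r = 0.01 without the 2 farthest mice.

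**Figure D4:**
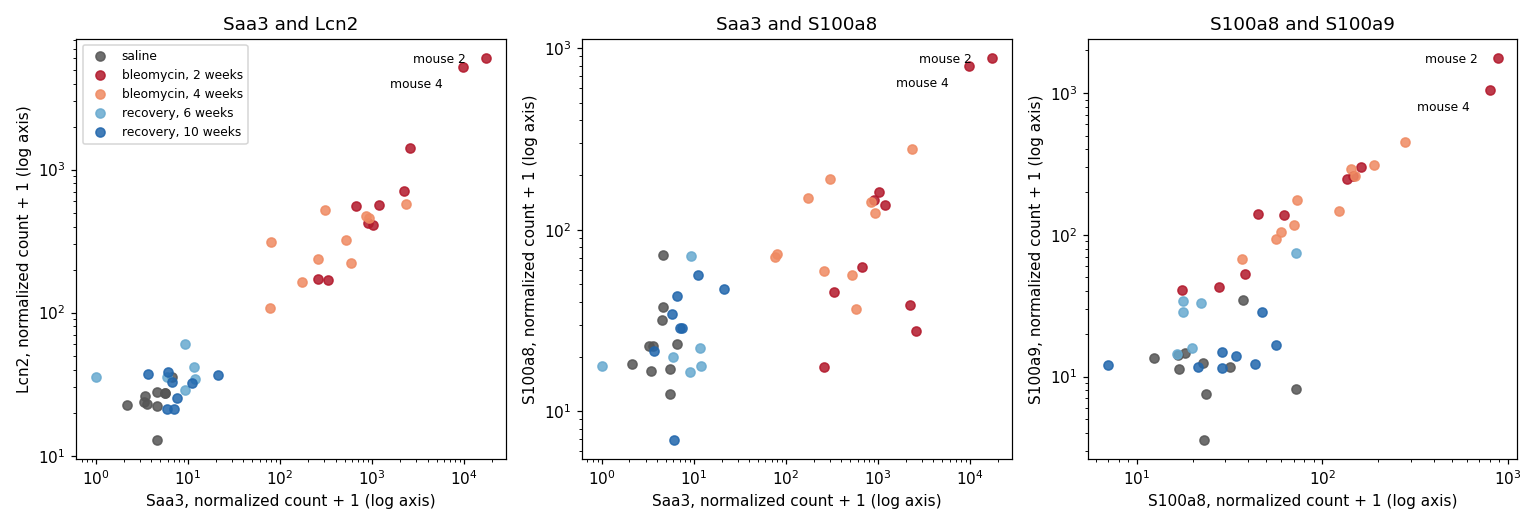
Normalized counts + 1 (log axes) of Saa3 against Lcn2, Saa3 against S100a8, and S100a8 against S100a9, 1 point per mouse, with mice 2 and 4 of the 2-week group marked. Both marked mice are at the top of each panel, and the bleomycin mice follow a line for Saa3 with Lcn2 and for S100a8 with S100a9 more closely than for Saa3 with S100a8.

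Within single groups r is given as a description. Saa3 and Lcn2 had r = 0.98 at 2 weeks and 0.72 at 4 weeks, but 0.30 in saline, 0.16 after 6 weeks and 0.13 after 10 weeks of recovery. Saa3 and Saa1 had r = 0.99 and 0.87 under bleomycin. In saline and recovery Saa3 and Saa1 were near the counting floor while Lcn2 was not, and a weak r there is no finding. By rank, Saa3 and Lcn2 gave rho = 0.62 in saline, 0.09 after 6 weeks and -0.19 after 10 weeks of recovery. Lcn2 and Hp had r = 0.76 at 2 weeks, 0.78 at 4 weeks and 0.51 in saline (rho = 0.2 in saline). In recovery their r was 0.05 after 6 weeks (n = 6) and -0.3 after 10 weeks (n = 8). The genes most like Saa3 by r after group means were removed, of 17029 non-members and over 44 mice, were Cxcl5, a neutrophil-attracting chemokine (r = 0.81), Arhgap4 (0.77), Lst1 (0.77), Plbd1 (0.76) and Cd38 (0.76). Those most like S100a8 were Chil1, a chitinase-like protein (0.86), Fabp5, a fatty-acid-binding protein of keratinocytes (0.82), Arpc3 (0.78), Dera (0.77) and the kallikrein Klk6 (0.77). In each of these genes, mice 2 and 4 of the 2-week group stood above the group median. Cxcl5 was 70.2 and 39.3 in them, against a 2-week median of 12.6 and a saline mean of 1.0, under the floor. Chil1 was 802 and 613 against a 2-week median of 154. How far these r values rest on those mice was not tested.

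The ligands that induce acute-phase genes were low, and most of those tested were higher with bleomycin. Of 7 inducing cytokines tested, 4 rose at 2 weeks and 4 at 4 weeks, 0 fell, and the median log2 difference was 0.94 and 1.05. Il6 rose from 2.47 ± 1.81 normalized counts (SD, n = 10) to 14.9 ± 6.56 (n = 10) at 2 weeks (log2 difference 2.27 ± 0.37 SE, adjusted p = 3.68e-06). Osm, of the same cytokine family, rose by 2.03 ± 0.29 (adjusted p = 2.48e-07), Il1b by 1.67 ± 0.27 (3.75e-06) and Tnf by 0.94 ± 0.20 (0.000159). The neutrophil growth factor Csf3 was not among the genes tested and averaged 0.24 in saline, 2.00 at 2 weeks and 4.13 at 4 weeks. Its saline and 2-week means were under the floor. On the receiving side, 1 of 18 receptors and signalling genes rose at 2 weeks and 3 at 4 weeks, with medians of 0.14 and 0.10. Socs3, a feedback inhibitor induced by interleukin 6, rose by 0.87 ± 0.10 at 2 weeks (adjusted p = 6.46e-09) and 1.19 ± 0.10 at 4 weeks (1.72e-12). Osmr (0.66 ± 0.10, adjusted p = 6.31e-07) and Cebpd (0.72 ± 0.14, 5.73e-05) rose at 4 weeks. Cebpb, a C/EBP factor of the acute phase, did not pass (-0.06 at 2 weeks, adjusted p = 0.80, and -0.31 at 4 weeks, 0.139).

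Other acute-phase genes moved unevenly beside the members. Of 15 tested, 6 rose and 4 fell at 2 weeks (median log2 difference 0.50), and 5 rose and 1 fell at 4 weeks (median 0.10). The complement factor Cfb rose by 2.18 ± 0.20 (SE, adjusted p = 6.06e-12), the haem-binding protein gene Hpx by 1.82 ± 0.38 (0.00015) and the protease inhibitor Serpina3n by 1.29 ± 0.21 (3.86e-06) at 2 weeks. The iron hormone gene Hamp fell by 2.28 at 2 weeks (adjusted p = 5.21e-05), Mt2 by 0.71 (0.00505) and Tnfaip6 by 0.65 (0.000792). At 4 weeks Itih4 rose by 1.48 ± 0.27 (adjusted p = 2.48e-05). Complement C3 did not pass at 2 weeks (0.51 ± 0.20, below 1.5-fold) or at 4 weeks (0.10). Saa4, the constitutive serum amyloid A gene, averaged at most 0.32 normalized counts in any group. Of 11 other S100 genes tested, 0 rose and 2 fell at 2 weeks (median 0.03), and 1 rose (S100b, 0.61 ± 0.12, adjusted p = 0.000123) and 4 fell at 4 weeks (median -0.18). S100a3 and S100a7a fell by 6.04 (adjusted p = 1.49e-07) and 3.72 (4.07e-07) at 2 weeks, beside the fall of the growing hair markers given above, and S100a14 fell by 0.65 at 4 weeks (6.43e-05).

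Receptors and clearance partners of the member proteins were mixed. Of 14 tested, 5 rose and 1 fell at 2 weeks (median 0.32) and 4 rose and 1 fell at 4 weeks (median 0.27). Fpr2, a formyl peptide receptor that also binds serum amyloid A, rose by 3.19 ± 0.28 (SE, adjusted p = 1.71e-12) at 2 weeks, and Tlr4, a calprotectin receptor gene, by 0.97 ± 0.13 (5.78e-08). Tlr2 rose by 1.20 ± 0.16 (adjusted p = 8.47e-08), and Cd14 by 0.92 ± 0.16 at 4 weeks (1.54e-05). Cd163, the macrophage scavenger receptor for haptoglobin bound to haemoglobin, fell by 1.31 at 2 weeks (adjusted p = 3.06e-06) and by 1.70 at 4 weeks (1.42e-08) while Hp was higher. Slc22a17, the lipocalin receptor gene, did not pass (-0.08, adjusted p = 0.578). Ager, another receptor gene of this list, did not pass at 2 weeks (-0.04, adjusted p = 0.887) or 4 weeks (0.26, 0.301). Ager was named after its values were seen.

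Markers of some of the cells that can make these genes, neutrophils and macrophages, were higher in the same groups, whereas fat cell markers were not, and their part in the members' levels was not tested. Of 18 neutrophil markers tested, 12 rose and 2 fell at 2 weeks (median 1.88), and 11 rose and 1 fell at 4 weeks (median 1.78). Their summed level was 1584 to 4067 normalized counts in saline, 2303 to 19377 at 2 weeks, 2711 to 8107 at 4 weeks, 1013 to 1767 after 6 weeks and 912 to 1582 after 10 weeks of recovery. Csf3r, the receptor for neutrophil growth factor, rose from 69.9 ± 20.7 (SD, n = 10) to 495 ± 315 (n = 10) at 2 weeks (2.66 ± 0.23 SE, adjusted p = 6.71e-13). Cd177 rose by 4.05 ± 0.35 (adjusted p = 8.4e-13), the stefin-like BC100530 by 3.74 ± 0.55 (4.84e-07), and Cxcr2 by 1.70 ± 0.35 (0.00011). At 4 weeks Fpr1 rose by 3.81 ± 0.39 (adjusted p = 9.85e-11) and Trem1 by 3.43 ± 0.43 (1.58e-08), whereas Cxcr2 (0.72, 0.10) did not pass. Padi4 (adjusted p = 0.0301) and Il1r2 (fell by 0.64, 0.000677) were the 2 that fell at 2 weeks, and Padi4 fell by 1.40 at 4 weeks (0.00646). The granule gene Mpo averaged at most 0.57 in any group, and Ly6g was not analysed here. In mice 2 and 4 of the 2-week group the neutrophil sum was 19377 and 9665, against 2303 to 11711 in the other 8.

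Markers of stressed keratinocytes, which can make calprotectin, rose in part. Of 13 tested, 7 rose and 1 fell at 2 weeks (median 0.91), and 5 rose and 1 fell at 4 weeks (median 0.58). Krt6b rose by 6.42 ± 0.64 (SE, adjusted p = 5.48e-11), Stfa1 by 3.90 ± 0.56 (3.58e-07), Sprr2d by 2.44 ± 0.57 (0.000612) and Krt16 by 2.38 ± 0.47 (8.55e-05) at 2 weeks. Krt6a rose at 2 weeks (0.91 ± 0.36, adjusted p = 0.0461) and did not pass at 4 weeks (0.58, 0.221), and Sprr1a fell by 0.80 at 2 weeks (0.0131). Their sum had a median of 27259 in saline (21362 to 51272), 36492.0 at 2 weeks (16315 to 60707) and 26526 at 4 weeks (20066 to 52715). These ranges overlapped. Krt17 weighed most in this sum and was lower under bleomycin, with means of 19133 in saline, 13964 at 2 weeks and 14906 at 4 weeks. The sum therefore says little about scarcer genes such as Krt6b, with means of 63.96, 5962 and 2493. Of 10 macrophage markers, 8 rose and 0 fell at both times (medians 0.90 and 0.82), led by Fcgr1 (3.23 ± 0.21, adjusted p = 6.53e-17), Cd68 (1.32 ± 0.20, 6.79e-07) and Adgre1 (1.30 ± 0.17, 4.51e-08) at 2 weeks. Their sum was 11787 to 28219 in saline, 26140 to 65882 at 2 weeks and 16999.8 to 24342 after 6 weeks of recovery. The macrophage sums of mice 2 and 4, 65882 and 49412, were above those of the other 8 mice (at most 41891).

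Most hepatocyte markers were at or near the floor. Of 10 such markers, 7 averaged under 3 normalized counts in saline and 6 at 2 weeks, Alb averaged 32.6 ± 20.2 (SD, n = 10) in saline and 22.4 ± 7.86 (n = 10) at 2 weeks (adjusted p = 0.35), and Apoa1 averaged 0.80 and 1.20. Of the 4 tested, 2 rose and 1 fell at both times (medians 0.43 and 0.92): Ttr from 0.44 to 4.28 and Cyp2e1 from 769 to 1659 at 2 weeks, while Cps1 fell from 44.2 to 3.12. The sum of this list, 415 to 1266 in saline and 883 to 2966 at 2 weeks, is mostly Cyp2e1. Of 10 fat cell markers, 5 fell and 0 rose at both times (medians -0.52 and -0.56), among them Lep (fell by 2.43 at 2 weeks, adjusted p = 2.38e-09), Retn (by 1.33, 0.000144) and Adrb3 (by 1.26, 7.17e-08), and Fabp4 at 4 weeks (by 0.79, 2.83e-06). Adipoq did not pass (-0.24, adjusted p = 0.246). Their sum was 19103 to 34136 in saline and 11999.6 to 29858 at 2 weeks. Of 10 skin markers, 3 fell at 2 weeks (Pdgfra by 1.24, adjusted p = 3.72e-11, Col1a2 by 0.75, 0.00923, and Col1a1 by 0.71, 0.0148; median -0.29) and 1, Pdgfra, at 4 weeks (median 0.01). All 8 growing hair markers tested fell at both times (medians -8.17 and -7.19), by as much as 10.51 for Krt25.

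**Figure D5:**
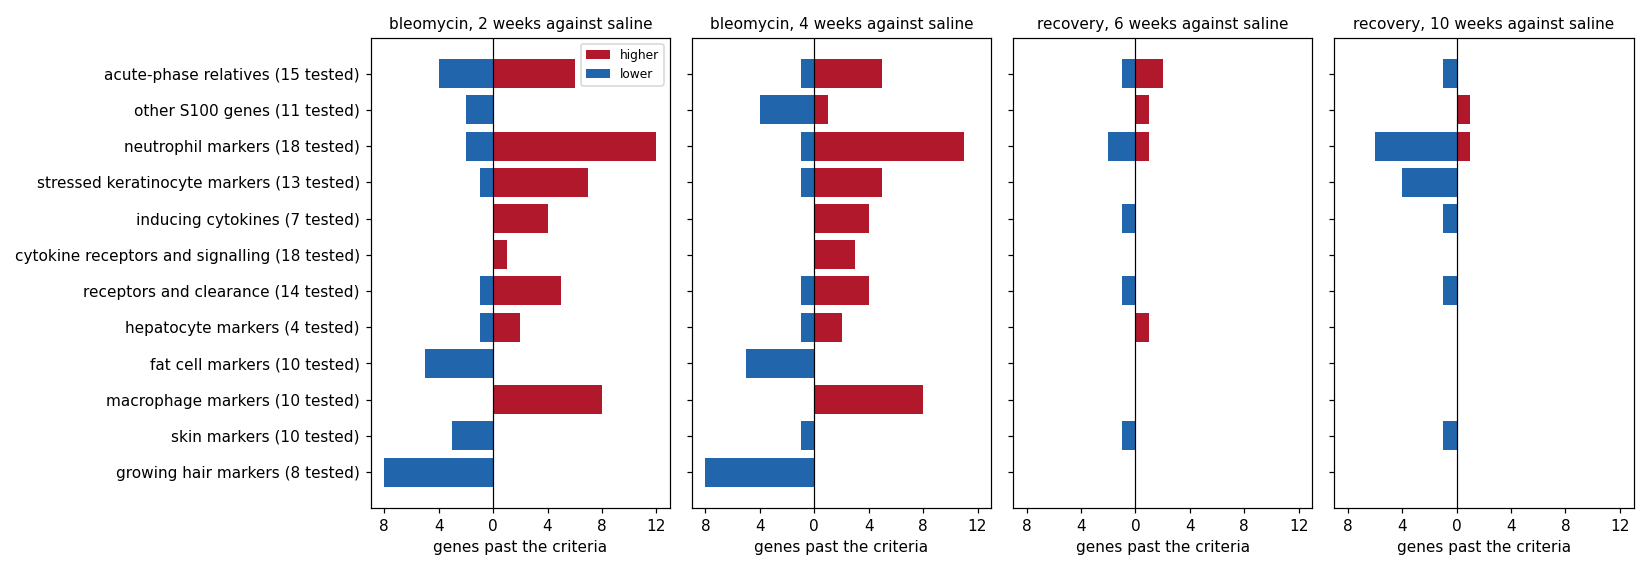
Number of genes of each list that were called higher (right) or lower (left) against saline at 2 and 4 weeks of bleomycin and after 6 and 10 weeks of recovery, with the number tested in parentheses. The neutrophil list shows 12 and 11 higher genes under bleomycin, and 1 higher and 2 lower, then 1 higher and 6 lower, in recovery.

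In recovery few listed genes differed from saline. Of 18 neutrophil markers, 1 was higher and 2 were lower after 6 weeks (median -0.31), and 1 was higher and 6 were lower after 10 weeks (median -0.42). The higher gene was Prtn3 at both times (1.06 and 1.33, adjusted p = 0.0399 and 0.00637), and the lower ones after 6 weeks were Retnlg (-2.0, 0.0286) and Stfa2 (-2.40, 0.0484), named after their values were seen. Among the lower genes after 10 weeks were Retnlg, Stfa3, BC100530 (-3.0, adjusted p = 0.00111), Cxcr2 (-1.17, 0.0464) and Il1r2 (-0.67, 0.0073), while 0 of the 8 members were called. By limma 0 macrophage, fat cell and growing hair markers and 0 genes of the receptor and signalling list were called in either recovery group. Of the inducing cytokines, Il1a alone was called, and it fell at both times (by 0.71, adjusted p = 0.0096, and by 0.73, 0.00579). Of the acute-phase relatives, Itih4 and Cfb rose after 6 weeks (1.52, adjusted p = 0.00137, and 0.71, 0.047), and C3 fell at both times (by 0.74, 0.0361, and by 0.70, 0.0407). Stressed keratinocyte markers had 0 calls after 6 weeks, and 4 fell after 10 weeks (Stfa1, Il1f6, Il1f9 and Defb14).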

How the data were processed

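Skin RNA of 44 mice was sequenced as 50 bp paired-end reads of a stranded mRNA library. The authors aligned reads to mm10 with STAR 2.4.0, counted them per Ensembl gene and divided each count by 1 DESeq2 1.12.3 size factor per mouse, and deposited this signal as normalized counts. The counting tool, strand setting and annotation release are not given in the sources used here. Values above 0 were whole multiples of 1 read (100.0%, tolerance 0.01), so reads were recovered. In 43 mice the step between values showed this alone, and in 1 it lay too near 1. A read count of 3, worth 2.19 to 3.9 normalized counts, was taken as the floor. Of 43411 genes, 42929 (98.9%) matched a symbol.

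Groups follow the labels. The members and gene lists were chosen with earlier results of these data known. Genes whose mean exceeded 3 entered limma 3.58.1 (R 4.3.3, mean-variance trend) as log2 of the normalized count plus 1, with 5 groups in 1 fit and Benjamini-Hochberg adjustment over 17037 genes. A call needed more than 1.5-fold (log2 0.585) at an adjusted p under 0.05. DESeq2 1.42.0 and the quasi-likelihood test of edgeR 4.0.16 were run on the reads, and each tool was tested on simulated data. Alternatives were a pseudocount of 0.1, no filter, a level of 10 or more in 6 or more mice, rescaling by trimmed means, the groups compared only, a replicate block, no fold threshold and 42 mice (without saline mouse 1 and 2-week mouse 2). Relations used two-sided permutation within groups. Named genes were the members, fixed relatives, up to 3 largest rises and falls of each list at 2 and 4 weeks, and the 5 genes most like Saa3 and S100a8. Other steps used scipy 1.17.1, matplotlib 3.10.9, pandas 2.3.3 and numpy 2.4.6 in Python 3.11.15.

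Levels between genes were compared per kilobase of the principal transcript. Pooled-read ratios carry exact 95% counting intervals, which cover counting error only. Ly6g, Orm3, Krt85 and Tchh were not analysed here, and 1 neutrophil marker counted in its list is not reported by name. Labels give mice and no batches, so p-values measure the spread between mice.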

Additional observations from a re-analysis of the deposited data

Results flagged for a closer look

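Among 39 gene-by-group sets of member values, 6 held a mouse that stood far from the rest. The rule would flag about 1 in 20 sets of independent normal values. These sets share mice and genes that vary together, and some lie at the floor, so no excess is read from the count. Saa2 was 0.92 normalized counts (1 read) in mouse 8 after 10 weeks of recovery and 0 in the other 7. Saa3 was 0.0 in mouse 2 after 6 weeks of recovery, where the next mouse had 4.94. Lcn2 was 11.92 in saline mouse 1, where the next mouse had 21.3. S100a8 was 70.94 in mouse 4 after 6 weeks of recovery, above the next at 21.2, and that mouse also had the highest S100a9 of its group. S100a8 was 5.96 in mouse 7 after 10 weeks of recovery, below the next at 20.5. S100a9 was 27.47 in mouse 6 after 10 weeks of recovery, above the next at 15.6, and that mouse also had the highest Saa3 of its group.

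A difference between 4 and 2 weeks of bleomycin, tested directly with limma, was called for 7 listed genes around the members, of which 6 are given here. Hpx was lower at 4 weeks (log2 difference -1.34, adjusted p = 0.0275) and Itih4 higher (0.98, 0.0245). Of the neutrophil markers, Csf3r was lower (-0.9, adjusted p = 0.0141) and Mmp8 was higher (1.13, 0.0304). The collagen genes Col1a1 (1.01, adjusted p = 0.00763) and Col1a2 (0.93, 0.0118) were higher at 4 weeks.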

How the results depend on the processing

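The 7 members called at 2 weeks and the 7 called at 4 weeks against saline kept that number under every alternative run, as did the 0 members called after 10 weeks of recovery and between both recovery groups. Of the members, 3 were called lower at 4 than at 2 weeks, but 0 with a pseudocount of 0.1, 1 with the groups compared only, with 42 mice or without mice 2 and 4 of the 2-week group, and 2 with the replicate block or with no filter. The cause was not tested. After 6 weeks of recovery 0 members were called except with mice 2 and 4 of the 2-week group left out (chosen after seeing the data), where 1 was. That alternative also brought the listed genes that differed between 4 and 2 weeks from 7 to 3 and the relation of Saa3 with S100a8 to r = 0.29. Fitting the groups compared only gave 4 such genes, and DESeq2 gave 11. Listed genes called after 6 weeks of recovery numbered 11, but 7 with the groups compared only and 18 with the replicate block. Replicate numbers are shared between groups, but the mice are different animals: the median correlation of deviations was -0.002 between mice of the same number and -0.004 between others, 6 of 44 mice were closest to their own number, and the replicate block moved no count of calls beyond these by over 1.5 times. Of 448 member fold changes under alternatives, 424 moved by less than the spread between mice, 24 moved by more, all of Saa1 or Saa2, which were near or under the floor in saline and recovery, and 0 called ones reversed. Without a fold change threshold 89 listed genes were called at 2 weeks, against 72. Saa1 and Saa2 in saline and recovery are limited by depth.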

Other observations

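Among the listed genes, Cd163, Pdgfra and S100b were called in both recovery groups with no overlap with saline. Cd163 measured 1037 ± 426 normalized counts (SD, n = 10) in saline, 293 ± 87.6 (n = 6) after 6 weeks and 345 ± 55.2 (n = 8) after 10 weeks of recovery. It fell by 1.76 on the log2 scale (limma adjusted p = 4.12e-06) and by 1.49 (3.38e-05). Pdgfra, a fibroblast marker, fell by 1.02 (limma adjusted p = 3.54e-06) and by 0.93 (7.79e-06). S100b, a glial S100 gene, rose by 0.92 (limma adjusted p = 3.05e-05) and 0.80 (0.000146).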
